A study of Mus musculus with 4 samples.

Results

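Cyclic AMP (cAMP) phosphodiesterase genes were followed in inguinal fat (ingWAT), a white depot under the skin of the mouse, after cold exposure. The question was whether the transcripts that encode the enzymes ending the cAMP signal differed when adipocytes lacked *Oct3*. The 10 genes are those of the PDE3, PDE4, PDE7 and PDE8 families: *Pde3a*, *Pde3b*, *Pde4a*, *Pde4b*, *Pde4c*, *Pde4d*, *Pde7a*, *Pde7b*, *Pde8a* and *Pde8b*. They were chosen by symbol, and all 10 were found among the 19030 genes listed. RNA sequencing was done on 2 libraries of Ctrl and 2 libraries of cKO mice, all of the C57BL/6 strain, 3 months of age and, by the labels, housed at 4°C. The study describes the steps and the length of the cold exposure in more than 1 way, so its course is not settled here. Ctrl mice carried *Oct3* flanked by loxP sites (Oct3 fl/fl). cKO mice carried the same alleles and an Adiponectin-Cre transgene, whose promoter drives recombination in adipocytes, so other cells of the depot keep *Oct3*. Oct3 is a transporter that takes up norepinephrine (NE). How many mice each library holds is not stated, so the p-values measure the spread between libraries, which may be technical.

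NE released by sympathetic nerves in the cold acts on β-adrenergic receptors of adipocytes, and the stimulatory G protein then turns on adenylyl cyclase, which makes cAMP. cAMP activates protein kinase A (PKA), which drives lipolysis and, through Creb and other factors, thermogenic genes such as *Ucp1*. Phosphodiesterases end the signal by hydrolysing cAMP to AMP. In fat cells PDE3B is the enzyme through which insulin restrains lipolysis, whereas PDE4 enzymes shape cAMP pools close to these receptors and are themselves turned on by PKA. PDE7 and PDE8 have a high affinity for cAMP.

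Values are given as FPKM, the fragments of a gene set against its transcript length and the mapped fragments of that library, so that levels of different genes can be set side by side. The depth, estimated from the FPKM steps of short RNAs, was between 17500000 and 18350000 reads per library. The test was limma on log2(FPKM + 1), run on the 12658 genes that averaged 1 FPKM or more, and a gene was called at a Benjamini-Hochberg adjusted p under 0.05. *Slc22a3*, the gene for Oct3, had 16.95 and 17.68 FPKM in the Ctrl libraries and 9.07 and 9.50 in the cKO libraries, a log2 fold change of -0.83 (limma adjusted p = 0.000439). Of all genes tested, 25.8% were called, 12% higher and 13.8% lower in cKO. The median over all log2 fold changes was -0.006. The fat marker *Adipoq* was at 1527 and 1485 FPKM in Ctrl and at 966 and 1046 FPKM in cKO. In contrast, 13 skeletal muscle genes summed to 2510 and 1687 FPKM in Ctrl and to 11.9 and 9.34 in cKO, so the Ctrl libraries held muscle transcripts that the cKO libraries nearly lacked.

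**Figure D1:**
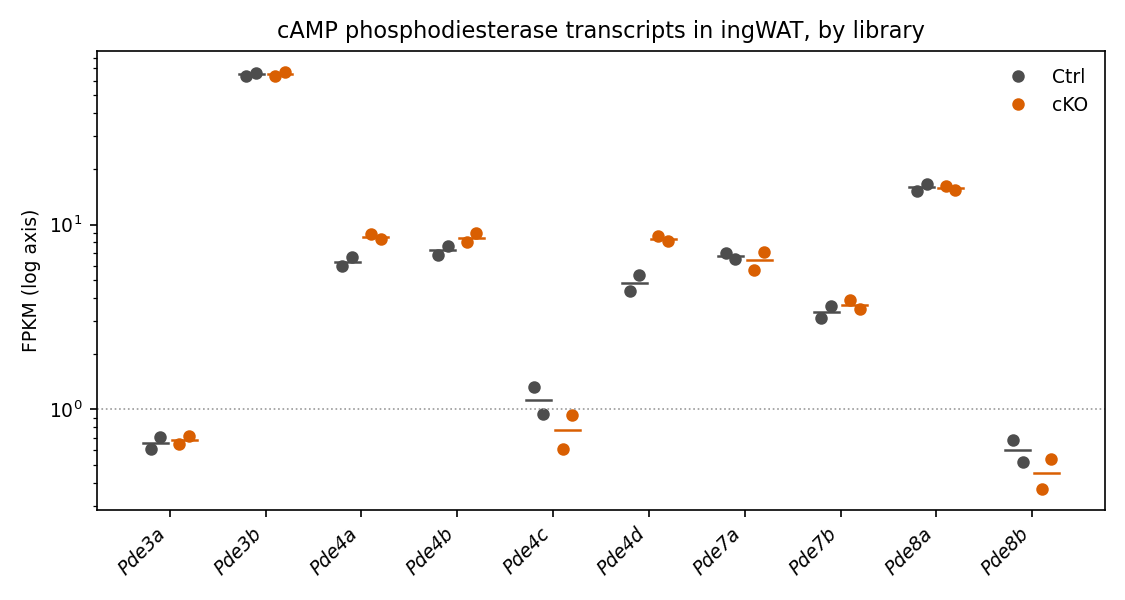
FPKM (vertical log axis) of the 10 cAMP phosphodiesterase genes in the 2 Ctrl and 2 cKO libraries, with each point a library, each bar the mean of a genotype and the dotted line the 1 FPKM filter. *Pde3b* stands highest in all 4 libraries, between 63.59 and 67.28 FPKM, and the cKO points of *Pde4d*, 8.67 and 8.13 FPKM, lie above its Ctrl points, 4.38 and 5.32 FPKM.

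In ingWAT of both genotypes *Pde3b* was the most abundant of the 10 transcripts, followed by *Pde8a*. In cKO, *Pde4d* rose 1.73-fold in mean FPKM and *Pde4a* rose 1.36-fold, while no member was called lower. *Pde3b* did not differ detectably between the genotypes. Of the 10 genes, 7 passed the filter on low values and were tested, and 2 of these 7 were called higher, against 12% of all genes tested. By the order of the libraries alone, 3 of the 7 had both cKO libraries above both Ctrl libraries, against 31.9% of all genes tested, and 0 had both below, against 34.6%. At an unadjusted p under 0.05, limma gave 2 members higher and 0 lower. The share of all genes at that threshold was not counted, so this count has no background. Over the 7 genes, log2 fold changes had a median of 0.10. Since ingWAT was sequenced in bulk, fewer cells of a type and less RNA per cell cannot be told apart.

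The sequence before 1 annotated start of each of the 3 most abundant PDE4 genes is shown because PDE4 is the family in which calls were made. The RefSeq promoter table (GRCm38.p6) held 16 promoters, each from 250 bases before to 50 bases after a start, for 7 of the 10 genes. Each was searched on both strands for the cAMP response element TGACGTCA, to which Creb binds, and for its left part TGACG, which reads as CGTCA on the other strand and overlaps the whole element. The whole element was found in 0 of the 16, and in 1.79% of all 32851 promoters of this length. The shorter motif was found in 4 of the 16, and in 20.8% of all promoters. Among these was a start of *Pde4a* at which the motif begins 50 bases upstream, with the 250 bases before the start at chr9:21183851-21184100 on the plus strand. The others were a start of *Pde4b*, with the motif 34 bases upstream and the bases at chr4:102421305-102421554 on the plus strand, and 1 start each of *Pde8a* and *Pde8b*. For *Pde4d* the table gives a single start, with the bases before it at chr13:108653927-108654176 on the plus strand, and the letters of the motif are not in that window. The sequences run 5′ to 3′ and end at the base before the start, and capitals mark the motif.
Pde4a: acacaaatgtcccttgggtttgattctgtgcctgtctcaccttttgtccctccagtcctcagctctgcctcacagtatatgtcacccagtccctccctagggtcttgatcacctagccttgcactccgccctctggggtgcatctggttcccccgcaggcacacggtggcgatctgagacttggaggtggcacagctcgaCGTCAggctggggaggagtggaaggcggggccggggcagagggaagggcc
Pde4b: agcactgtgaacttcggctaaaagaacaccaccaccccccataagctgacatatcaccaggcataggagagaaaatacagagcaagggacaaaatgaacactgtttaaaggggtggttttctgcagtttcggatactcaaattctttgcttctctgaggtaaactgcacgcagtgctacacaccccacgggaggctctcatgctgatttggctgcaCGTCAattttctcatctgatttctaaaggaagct
Pde4d: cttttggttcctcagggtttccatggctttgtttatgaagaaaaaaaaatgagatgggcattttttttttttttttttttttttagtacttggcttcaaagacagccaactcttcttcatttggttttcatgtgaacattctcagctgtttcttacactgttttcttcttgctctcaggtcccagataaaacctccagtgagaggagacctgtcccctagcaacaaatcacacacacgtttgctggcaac
The starts of *Pde4a* and *Pde4b* shown were picked because they hold the motif. They are 1 of 3 starts of *Pde4a* and 1 of 4 starts of *Pde4b* in the table, and the other 2 and 3 starts do not hold it. A match describes letters only. FPKM was given per gene, so which of the starts of these genes was used in ingWAT cannot be read from it.

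PDE4D is an enzyme of many isoforms that is known to attach to β-arrestin and to A-kinase anchoring proteins. *Pde4d* (Entrez gene 238871, chr13:108654177-109955969 on the plus strand of GRCm38) was at 4.38 and 5.32 FPKM in the Ctrl libraries and at 8.67 and 8.13 FPKM in the cKO libraries. Both cKO libraries lay above both Ctrl libraries, and the gap between the groups was larger than the difference within either. The mean went from 4.85 ± 0.665 to 8.40 ± 0.382 FPKM (SD, n = 2 each), a gain of 73.2%. The log2 fold change was 0.69 (standard error 0.0978, 95% interval 0.46 to 0.92, limma adjusted p = 0.00306), against a median absolute log2 fold change of 0.147 over all genes tested. *Pde4d* stayed called when any 1 of the 4 libraries was left out, with the largest limma adjusted p, 0.0499, without Ctrl replicate 1. The table rests on 1 *Pde4d* transcript of 2554 bases, whereas GENCODE marks 9 basic transcripts for this gene, so the isoforms behind the rise are not resolved. At the estimated depth the gene held about 205 to 388 reads per library.

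*Pde4a* (Entrez gene 18577, chr9:21165700-21213248, plus strand) encodes another PDE4 with long and short isoforms. It was at 5.96 and 6.66 FPKM in Ctrl and at 8.85 and 8.33 FPKM in cKO. The groups did not overlap here either, with means of 6.31 ± 0.495 and 8.59 ± 0.368 FPKM (SD, n = 2 each) and a gain of 36.1%. The log2 fold change was 0.39 (standard error 0.0818, 95% interval 0.20 to 0.59, limma adjusted p = 0.0131). This call was less firm than that of *Pde4d*. It was lost without Ctrl replicate 1 (adjusted p = 0.135), without Ctrl replicate 2 (adjusted p = 0.0548), without cKO replicate 1 (adjusted p = 0.0693) and when all 19030 genes were tested with no filter (limma adjusted p = 0.0625).

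*Pde4b* encodes the PDE4 best known from leukocytes, where it is induced in inflammation. *Pde4b* (Entrez gene 18578, chr4:102087332-102607275, plus strand) was at 6.84 and 7.68 FPKM in Ctrl and at 8.02 and 8.99 FPKM in cKO. Both cKO libraries were above both Ctrl libraries, yet the gap between the groups was smaller than the difference within each. With a log2 fold change of 0.20 (95% interval -0.006 to 0.41, limma adjusted p = 0.139) it was not called. *Pde4c*, the PDE4 of lowest level in this tissue (chr8:70723835-70751186, plus strand), was at 1.32 and 0.94 FPKM in Ctrl and at 0.61 and 0.93 FPKM in cKO. Its mean was under the filter, and its libraries stood on about 34 to 79 reads. The groups were kept from overlapping only by 0.94 FPKM in Ctrl against 0.93 FPKM in cKO. Of genes tested, 34.6% had both cKO libraries below both Ctrl libraries. Only in the fit with no filter was a value obtained for *Pde4c*, a log2 fold change of -0.27 (limma adjusted p = 0.319).

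**Figure D2:**
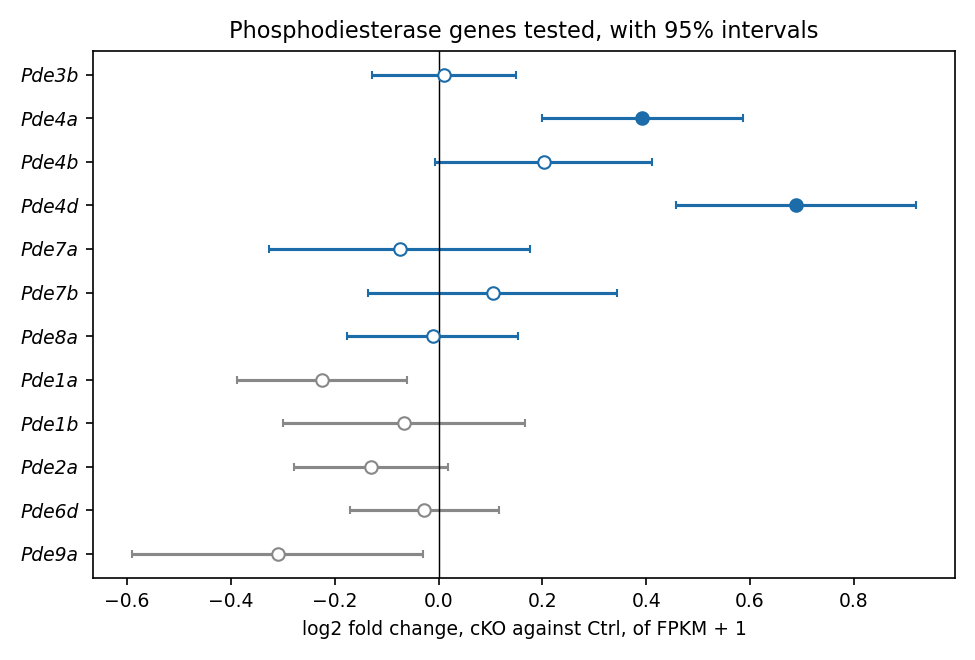
Log2 fold change of cKO against Ctrl on FPKM + 1 (horizontal axis) for the 7 tested cAMP phosphodiesterase genes in blue and the 5 tested genes of other PDE families in grey, with 95% intervals from limma and filled points for called genes. *Pde4a* at 0.39 and *Pde4d* at 0.69 are filled, whereas *Pde3b* sits at 0.01 with an interval from -0.13 to 0.15.

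PDE3B, the membrane-bound PDE3 of adipocytes, is the isoform that insulin activates. *Pde3b* (Entrez gene 18576, chr7:114415222-114537938, plus strand) was at 63.59 and 66.53 FPKM in Ctrl and at 63.83 and 67.28 FPKM in cKO, so the libraries of the genotypes interleaved. The log2 fold change was 0.01 (95% interval -0.13 to 0.15, limma adjusted p = 0.913), and at about 7342 to 8024 reads per library the counting error was at most 1.17%. The interval leaves room for a difference of up to 0.15 on the log2 scale in either direction and not for one as large as that of *Pde4d*. *Pde3b* stood between the percentiles 90.7 and 91.2 of the tested genes. *Pde3a*, the isoform known from heart, platelets and oocytes (chr6:141249269-141506862, plus strand), was at 0.61 and 0.71 FPKM in Ctrl and at 0.65 and 0.72 FPKM in cKO, under the filter. Per length, *Pde3b* was between 93.4 and 104 times as abundant as *Pde3a* in the 4 libraries.

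The PDE8 and PDE7 genes showed no call. *Pde8a* (Entrez gene 18584, chr7:81213265-81334535, plus strand), the second most abundant member, was at 15.25 and 16.65 FPKM in Ctrl and at 16.19 and 15.42 FPKM in cKO, so that both cKO libraries lay between the Ctrl libraries. Its log2 fold change was -0.01 (95% interval -0.18 to 0.15, limma adjusted p = 0.920). *Pde8b* (chr13:95024105-95250401, minus strand), at 0.68 and 0.52 FPKM in Ctrl and 0.37 and 0.54 FPKM in cKO, was under the filter, with about 26 to 53 reads per library and a counting error of 19.6% in the lowest. *Pde7a* (Entrez gene 18583, chr3:19223108-19311322, minus strand), a PDE known from T cells, was at 6.99 and 6.53 FPKM in Ctrl and at 5.68 and 7.12 FPKM in cKO, a log2 fold change of -0.07 (95% interval -0.33 to 0.18, limma adjusted p = 0.649). Its cKO libraries enclosed both Ctrl libraries. *Pde7b* (Entrez gene 29863, chr10:20397052-20725078, minus strand) was at 3.12 and 3.61 FPKM in Ctrl and at 3.90 and 3.48 FPKM in cKO, a log2 fold change of 0.10 (95% interval -0.14 to 0.34, limma adjusted p = 0.493). Its groups overlapped as well. Exons of *Pde3a*, *Pde7a* and *Pde8b* share bases with 1 gene each on the opposite strand in GENCODE. The library protocol does not mark strand, so reads within the shared bases cannot be told apart.

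When the genes were placed in order of mean FPKM, the top was shared by the genotypes and the middle was not. In Ctrl the order was *Pde3b*, *Pde8a*, *Pde4b*, *Pde7a*, *Pde4a*, *Pde4d*, *Pde7b*, *Pde4c*, *Pde3a* and *Pde8b*, in which the libraries of *Pde4b* and *Pde7a*, of *Pde7a* and *Pde4a*, and of *Pde3a* and *Pde8b* overlapped. In cKO, *Pde4d* was level with *Pde4a* and *Pde4b*, the libraries of these neighbours overlapping, and it stood above *Pde7a*, whereas in Ctrl both libraries of *Pde4d* were below both of *Pde7a*. At the bottom in cKO, *Pde4c* and *Pde3a* overlapped. The level of *Pde4d* was 0.735 and 0.799 of that of *Pde4a* in Ctrl and 0.980 and 0.976 of it in cKO. These levels rest on 1 listed transcript of *Pde4d*, 3 of *Pde4a* and 5 of *Pde4b*. Levels set across these genes, and shares drawn from them, are therefore approximate.

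**Figure D3:**
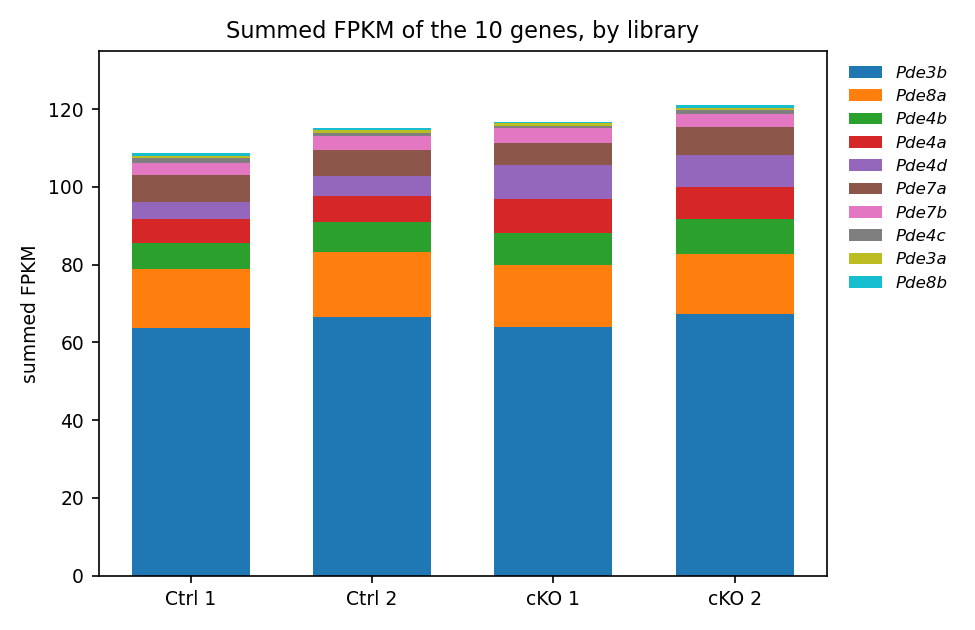
Summed FPKM of the 10 genes (vertical axis, from 0) in each of the 4 libraries, with each colour a gene in order of its mean level from the bottom. *Pde3b* makes up 58.5% and 57.8% of the bar in Ctrl and 54.7% and 55.6% in cKO, and the *Pde4d* segment is 4.38 and 5.32 FPKM in Ctrl against 8.67 and 8.13 FPKM in cKO.

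Summed by family, the PDE4 sums did not overlap between the genotypes, and both cKO sums were the higher. Of single genes tested, 31.9% had both cKO libraries above both Ctrl libraries. The 4 PDE4 genes summed to 18.5 and 20.6 FPKM in Ctrl and to 26.15 and 26.38 FPKM in cKO, a ratio of means of 1.34. PDE3 summed to 64.2 and 67.24 FPKM in Ctrl and to 64.48 and 68.0 FPKM in cKO, and the sums of PDE7 (9.58 to 10.6 FPKM) and PDE8 (15.93 to 17.17 FPKM) overlapped in the same way. The sum over all 10 genes was 108.74 and 115.15 FPKM in Ctrl and 116.77 and 120.94 FPKM in cKO, a ratio of 1.06, and the gap between the groups was smaller than the difference within either. With 2 libraries against 2, an exact permutation test cannot give a p under 0.333, so these sums are a description. As a share of the 10 genes, PDE4 made up 17.0% and 17.9% in Ctrl and 22.4% and 21.8% in cKO. The shares of PDE3, PDE7 and PDE8 did not overlap either and were lower in cKO, as a rise in 1 share lowers the rest. The ratio of PDE4 to *Pde3b* was 0.291 and 0.310 in Ctrl and 0.410 and 0.392 in cKO. Within PDE4, the share of *Pde4d* was 23.7% and 25.8% in Ctrl and 33.2% and 30.8% in cKO, while the share of *Pde4a* ranged from 31.6% to 33.8% and overlapped.

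The other PDE families, most of which also or chiefly hydrolyse cyclic GMP, gave no call. Their 14 genes include *Pde6d*, whose product is known as a carrier of prenylated proteins. Of the 14 genes 5 passed the filter, and limma called 0 of them. At an unadjusted p under 0.05 it gave 0 higher and 2 lower, with no share of all genes counted at that threshold. *Pde2a*, which cyclic GMP stimulates, was the most abundant of these, at 31.07 and 29.24 FPKM in Ctrl and 26.73 and 28.20 FPKM in cKO, a log2 fold change of -0.13 (limma adjusted p = 0.176). *Pde1a*, a calcium- and calmodulin-dependent enzyme, was at 9.38 and 9.82 FPKM in Ctrl and 8.0 and 8.14 FPKM in cKO, a log2 fold change of -0.22 that fell just short of the threshold (limma adjusted p = 0.0529). Of the 5 genes, 4 had both cKO libraries below both Ctrl libraries, against 34.6% of all genes tested. Whether the cAMP families and these families differ in their response was not tested.

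Because phosphodiesterases are set by partners and by insulin, genes that bind, anchor or control PDE3 and PDE4 were counted next. Of 18 such genes tested, 6 were called lower and 0 higher, against 13.8% and 12% of all genes. At an unadjusted p under 0.05 limma gave 7 lower and 1 higher, with no share of all genes counted at that threshold. These 6 calls came down to 0 without Ctrl replicate 1, to 1 without Ctrl replicate 2 and to 3 with no filter on low values. The largest fall was that of *Pik3r1*, the regulatory subunit of the phosphoinositide 3-kinase that carries the insulin signal, from 64.55 and 57.57 FPKM to 19.29 and 31.37 FPKM (log2 fold change -1.27, limma adjusted p = 0.00389). *Abhd15*, which binds and stabilises PDE3B, was at 18.69 and 18.91 FPKM in Ctrl and at 14.97 and 14.61 FPKM in cKO (log2 fold change -0.33, limma adjusted p = 0.00824), while its partner transcript *Pde3b* did not move detectably. *Pde4dip*, which encodes myomegalin, a protein that binds PDE4D, fell from 10.95 and 10.12 FPKM to 7.91 and 8.73 FPKM (log2 fold change -0.31, limma adjusted p = 0.0287). It shares part of its name with *Pde4d* but is a separate gene, and its difference ran the other way. The call of *Abhd15* was lost without either Ctrl library (limma adjusted p = 0.0808 and 0.0712), that of *Pde4dip* without Ctrl replicate 1 (0.219), Ctrl replicate 2 (0.0978) or cKO replicate 1 (0.120), and that of *Pik3r1* without Ctrl replicate 1 (0.0775). With no filter on low values *Pde4dip* (limma adjusted p = 0.0919) and *Pik3r1* (0.0610) were not called either.

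**Figure D4:**
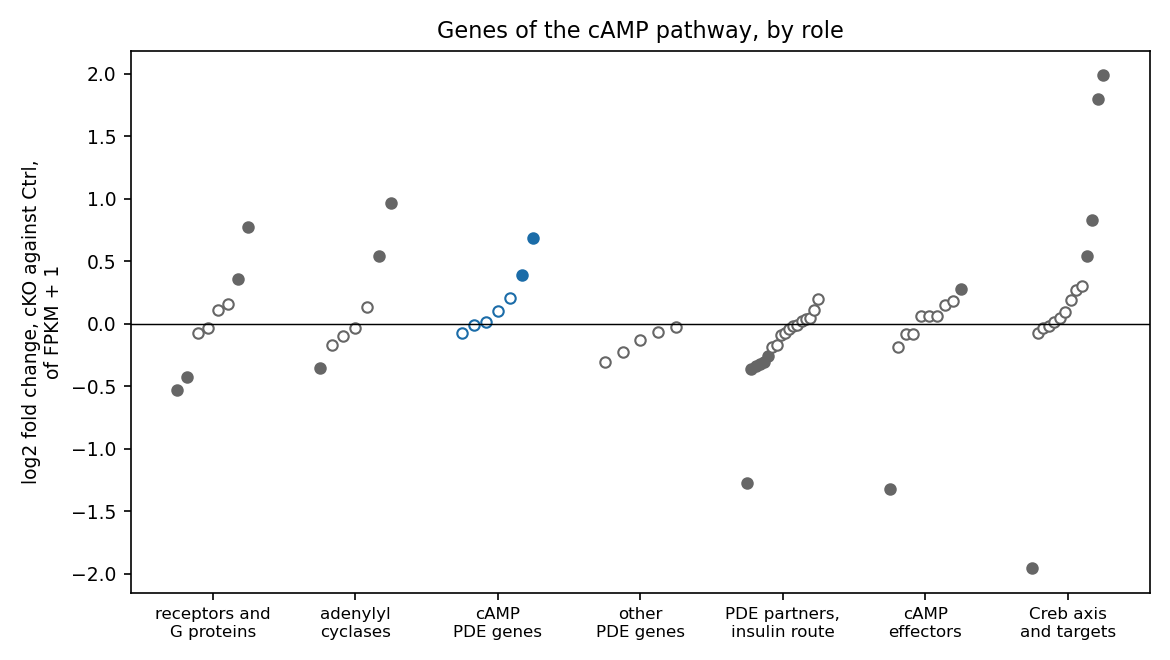
Log2 fold change of cKO against Ctrl on FPKM + 1 (vertical axis) of each tested gene of the cAMP pathway, grouped by role and ordered by value within a group, with filled points for called genes and the 7 tested cAMP phosphodiesterases in blue. The 6 filled points among the PDE partners all lie below 0, the lowest at -1.27, and *Ucp1* stands highest in the plot at 1.99.

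Along the rest of the pathway, calls ran in both directions, and the counts of each list stand against 12% of all genes tested that were called higher and 13.8% that were called lower. Among receptors and G proteins 2 of 8 tested genes were higher and 2 lower. *Adrb1*, the β1-adrenergic receptor gene, rose from 2.79 and 3.39 FPKM to 6.33 and 5.60 FPKM, a log2 fold change of 0.77 (limma adjusted p = 0.00279). The far more abundant *Adrb3*, the β3-adrenergic receptor gene, fell from 166.45 and 151.12 FPKM to 113.26 and 122.23 FPKM. Its log2 fold change was -0.43 (limma adjusted p = 0.00568), a call that was not rechecked with a library left out. *Gnai1*, an inhibitory G protein subunit, had the largest fall of this list, from 57.66 and 59.21 FPKM to 38.30 and 42.13 FPKM (log2 fold change -0.53, limma adjusted p = 0.00179). Of 7 adenylyl cyclases 2 were higher and 1 lower, with *Adcy3* at 12.35 and 14.23 FPKM in Ctrl and 28.85 and 24.99 FPKM in cKO (log2 fold change 0.97) and *Adcy5* at a log2 fold change of -0.35, a call lost without Ctrl replicate 1, Ctrl replicate 2 or cKO replicate 1 (limma adjusted p = 0.148, 0.0806 and 0.0713) and with no filter (0.0729). As with *Pde4d*, both cKO libraries of *Adcy3* lay above both Ctrl libraries. Of 10 genes for PKA subunits, PKA inhibitors and Epac proteins 1 was higher, *Prkar2b* at a log2 fold change of 0.28, and 1 was lower, the PKA inhibitor *Pkia* at -1.32. The call of *Prkar2b* was lost whichever library was left out (limma adjusted p = 0.0560 to 0.157) and with no filter (0.0606), and that of *Adrb1* without Ctrl replicate 1 (0.0527). Of 14 genes of the Creb axis 4 were higher and 1 lower, with *Ucp1* at 1.99 and the immediate early gene *Fos* at -1.96. The 4 include *Ucp1*, *Dio2* and *Ppargc1a*, which are counted again among the brown and beige fat markers below. Over these lists and the partners together, 9 of 57 genes were higher and 11 lower, shares near those of all genes tested, and the median over the 57 log2 fold changes was -0.01. The 20 calls came down to 8 without Ctrl replicate 1 and to 11 without Ctrl replicate 2.

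Markers of other cell types moved with genotype beside the PDE4 genes. The counts of each list stand against 12% of all genes tested called higher and 13.8% called lower. Of all genes tested, 31.9% had both cKO libraries above both Ctrl libraries and 34.6% had both below. All 7 B cell markers tested were called higher, their sum being 236 and 260.2 FPKM in Ctrl and 373 and 418 FPKM in cKO, and 7 of 8 T cell markers were called higher, with sums of 107 and 110 FPKM against 144 and 192 FPKM. The neutrophil markers summed to 13.0 and 13.4 FPKM in Ctrl and to 30.1 and 28.6 FPKM in cKO, with all 5 tested called higher. Of 7 macrophage markers 4 were called lower and 1 higher, although their sums overlapped (164 to 196 FPKM). The first gene of each of these lists was present in all 4 libraries, *Cd79a* from 88.78 to 166.79 FPKM, *Cd3d* from 10.82 to 23.45 FPKM, *S100a8* from 3.26 to 10.06 FPKM and *Adgre1* from 13.37 to 17.36 FPKM. Brown and beige fat markers summed to 1516 and 1792 FPKM in Ctrl and to 4778 and 4038 FPKM in cKO, and all 7 were called higher. Fibroblast progenitor markers, with 5 of 6 called lower, had sums of 1355 and 1158 FPKM in Ctrl and 717 and 741 FPKM in cKO, and Schwann cell markers, with 4 of 5 called lower and 1 higher, of 162 and 149 FPKM against 71.1 and 76.7 FPKM. The white adipocyte list, with 3 of 8 genes called lower, summed to 22788 and 23026 FPKM in Ctrl and to 18999 and 19178 FPKM in cKO. Most of this sum was *Fabp4*, at 15874 and 16398 FPKM in Ctrl and 13456 and 13616 FPKM in cKO, which was not called (limma adjusted p = 0.225). *Plin1*, *Lipe*, *Pnpla2* and *Cidec* were not called either, with log2 fold changes from -0.07 to 0.07. Endothelial sums were 223 and 220 FPKM against 188 and 194 FPKM, with 4 of 7 genes called lower, and smooth muscle sums were 69.6 and 66.1 FPKM against 74.4 and 74.1 FPKM, with 1 of 5 called higher. The epithelial markers were nearly absent, at 0.63 to 0.90 FPKM in sum. Of the 13 skeletal muscle genes, whose sums are given above, all 11 tested were called lower in cKO. The part of these cell types and of muscle in the rise of *Pde4d* and *Pde4a* was not tested. Nor was their part in falls along the pathway, such as those of *Pde4dip* and *Pkia*.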

How the data were processed

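RNA was sequenced from ingWAT of 2 Ctrl and 2 cKO libraries, and the authors deposited 1 table of FPKM per gene and library. The authors selected polyadenylated RNA and read single ends. The submitters' processing notes name HISAT2 2.0.4, RSEM 1.2.12 and mm10, and no scaling between libraries is stated. For 24 genes the symbol was a date, repeated or missing, and these were named by their gene ID. FPKM held no read counts, so no count test was run, and depth was estimated from 299 short RNAs of at most 400 bases, of whose values of up to 6 reads 85.0% to 90.4% came out whole within 0.1. On 3 simulated libraries this erred by at most 0.493%.

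Genes that averaged 1 FPKM or more were compared on log2(FPKM + 1), which understates changes of low genes, with limma 3.58.1 (eBayes with a trend) in R 4.3.3, two-sided, with Benjamini-Hochberg adjustment over 12658 genes. When tested on simulated data of 12658 genes for this comparison, it recovered 199 of 200 genes changed 2-fold in FPKM + 1, with 11 false calls. Of 200 genes changed 1.5-fold on that scale it recovered 188, with 7 false calls. The same fold in FPKM is a smaller change on this scale for low genes. Fewer genes were changed in the simulation than were called in the data. Each simulated gene was given the smoothed spread of genes at its level. Genes that vary more or less than their level predicts were therefore not simulated, and recovery and false calls in the data may be worse. Alternatives were a pseudocount of 0.1, no filter, a minimum of 5, median-of-ratios and quantile scaling, a replicate block, eBayes without a trend and each library left out. Members and lists were chosen with earlier results of these data known. Named are all members, every called phosphodiesterase, and of each pathway list the called gene with the largest rise and that with the largest fall, and of marker lists the first gene and the sums. Of the B cell list 1 marker is not reported here. *Abhd15* and *Pde4dip*, and *Pde1a* and *Pde2a*, were named after their values were seen. So were *Adrb3*, *Dio2* and *Ppargc1a*, and of the white adipocyte list *Fabp4*, *Plin1*, *Lipe*, *Pnpla2* and *Cidec*. The rest was done in Python 3.11.15 (pandas 2.3.3, numpy 2.4.6), and plots in matplotlib 3.10.9. Gene coordinates are those of RefSeq genes on GRCm38, the build called mm10. Strands, transcript lengths and exon overlaps are from GENCODE vM21.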

Additional observations from a re-analysis of the deposited data

How the results depend on the processing

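*Pde4d* was called higher in all of the alternatives run, with log2 fold changes of 0.57 to 0.80 when a library was left out and a largest limma adjusted p of 0.0499, without Ctrl replicate 1. *Pde4b*, *Pde3b*, *Pde7a*, *Pde7b* and *Pde8a* were not called in any alternative that tested them. The number of members called was 2 and fell to 1 with no filter on low values, where *Pde4a* was lost, and was 1 to 2 when a library was left out. Genes called in all numbered 3269, 1762 with no filter, and 787 to 2340 when a library was left out, the lowest being without Ctrl replicate 1. Calls among the cAMP pathway lists numbered 20, and 8 to 18 when a library was left out. PDE partner calls numbered 6, fell to 3 with no filter, and were 0 to 5 when a library was left out. For the other PDE genes the count was 0, and 1 with a pseudocount of 0.1, a minimum mean of 5 FPKM or quantile normalization, which called *Pde1a* lower, and with no trend, which called *Pde9a* lower. It was 0 whichever library was left out. The sign of 3 genes near 0 turned. *Pde8a* went to 0.0046 under median-of-ratios scaling and ranged from -0.071 to 0.048 when a library was left out, *Pde3b* from -0.027 to 0.048 and *Pde7a* from -0.22 to 0.066. The cause was not tested. With a library left out, its group's lone library was assumed to vary like the other group. The replicate block gave 3383 genes, 2 members and 19 pathway genes called. Deviations of same-numbered libraries correlated at 0.0148, so the numbers were not taken to pair them. The log2 ratio of the summed FPKM of the 10 genes was 0.09 and lay between 0.05 and 0.13 when a library was left out. Depth limits *Pde4c* and *Pde8b* most, at 17.1% and 19.6% counting error in their lowest library.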

Other observations

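Most of the remaining PDE genes were low in ingWAT. *Pde5a*, the cyclic GMP phosphodiesterase that sildenafil inhibits, was at 0.95 and 0.99 FPKM in Ctrl and at 0.68 and 0.73 FPKM in cKO, under the filter and with groups that did not overlap. *Pde9a*, a cyclic GMP phosphodiesterase of high affinity, was at 1.25 FPKM in both Ctrl libraries and at 0.82 and 0.81 FPKM in cKO, a log2 fold change of -0.31 that was not called (limma adjusted p = 0.0998). *Pde10a* lay between 0.46 and 0.54 FPKM and *Pde11a* between 0.35 and 0.86 FPKM. *Pde6d*, whose product carries prenylated proteins, was at 14.98 to 15.47 FPKM in the 4 libraries and was not called (limma adjusted p = 0.777), whereas the photoreceptor genes *Pde6a*, *Pde6b*, *Pde6c* and *Pde6h* were at 0.11 FPKM or lower in every library. These genes were named after their values were seen.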
